A study of Mus musculus with 4 samples.

Results

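The genes described here are 7 keratins of stratified and basal epithelium, namely Krt4, Krt6a, Krt79, Krt5, Krt14, Krt15 and Krt17, as they were expressed in luminal cells of the mouse mammary gland. They were chosen on measured values of these same cells, because Krt4, Krt6a and Krt79 had higher levels in the mutant pool than in the WT pool, while the basal keratins were included as their counterparts. They are 7 of 55 keratin genes and of 52636 genes in the table. The contrast between genotypes is therefore given for them as a description.

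The study asked what the activating function of the receptor ERBB3 contributes to growth of the mammary ducts in puberty. ErbB3+/+;MMTV-Cre mice were the WT group. ErbB3V943R/V943R;MMTV-Cre mice, in which Cre driven by the MMTV promoter switches the Erbb3 locus to an allele encoding the V943R change, were the mutant group. Both groups carried MMTV-Cre, were C57BL/6N and were 6 weeks old. Thoracic and abdominal glands of 3 mice were pooled per genotype, enriched for epithelium and sorted for luminal cells, and each pool was run as 2 libraries, named A and B here. A genotype is thus 1 pool, the difference between its libraries is technical, and no test between genotypes was possible. A value larger than the gap between libraries is larger than the technical spread only, and mouse-to-mouse spread cannot be told apart from genotype.

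The table held 32439 cells, 18638 WT and 13801 mutant, with 135492671 unique molecular identifiers (UMIs, each counting 1 captured transcript end). Libraries held 6849 to 9627 cells with a median of 3154 to 4027 UMIs per cell, deeper in both mutant libraries than in WT A. Of 31923 barcodes, 511 occurred in more than 1 library. The authors had assigned the cells to 13 clusters and to luminal progenitor (LP, clusters 1 and 2), luminal intermediate (LI, cluster 3) and mature luminal (ML, clusters 4 to 11) classes. Cluster 11 was 15.4% of the WT cells but 4.85% of the mutant cells. Levels are given as CPM, the UMIs of a gene per 1000000 UMIs of the same cells. Erbb3 itself stood at 60.9 and 63.3 CPM in the WT libraries and at 29.8 and 30.8 CPM in the mutant libraries.

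Keratins are the intermediate filament proteins of epithelia. A filament is built from pairs of an acidic type I chain and a neutral or basic type II chain. Simple epithelia such as the luminal layer of the mammary gland use mainly Krt8 with Krt18 and Krt19, whereas the basal myoepithelial layer uses Krt5 with Krt14, and Krt17 is also a keratin of basal cells and of skin appendages. Krt4, with its partner Krt13, is a keratin of the suprabasal layers of wet stratified epithelia such as the oesophagus. Krt6a is induced in wounded and hyperproliferative skin and pairs with Krt16 or Krt17. Krt79 is a type II keratin of the ducts of hair follicles and sebaceous glands, and Krt15 is a type I keratin of basal cells and of hair follicle stem cells.

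The type II members (Krt4, Krt6a, Krt79 and Krt5) lie in the type II cluster on chromosome 15 and the type I members (Krt14, Krt15 and Krt17) in the type I cluster on chromosome 11, all on the minus strand of GRCm38. They share the end of the rod domain, where the helix termination motif of the protein is encoded. The 27 coding bases of this motif are shown because they show how alike the 7 transcripts are where the family is most conserved, and so whether reads could be mistaken between members. Capitals mark the 16 bases that are the same in all 7, and each stretch lies within 1 coding exon (exon 7 of 9 in the type II members, exon 6 of 8 in the type I members), written 5′ to 3′ on the coding strand.
Krt4, chr15:101919544-101919570: ACcTACaGgaagCTGCTgGAggGcgAG
Krt6a, chr15:101691293-101691319: ACcTACaGgaagCTGCTgGAagGagAG
Krt79, chr15:101930686-101930712: ACcTACcGcaagCTGCTgGAgaGcgAG
Krt5, chr15:101708884-101708910: ACcTACaGgaagCTGCTgGAggGcgAG
Krt14, chr11:100204116-100204142: ACcTACcGccgtCTGCTgGAggGagAG
Krt15, chr11:100132999-100133025: ACtTACcGgaacCTGCTcGAggGccAG
Krt17, chr11:100257441-100257467: ACcTACcGccgtCTGCTgGAggGagAG

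Krt4 and Krt5 were identical over these 27 bases, as were Krt14 and Krt17. The least alike were Krt15 against Krt14 or Krt17, with 19 bases in common. The libraries were made from transcript 3′ ends, and there the members differed. Over the last 500 bases of the transcript, none of the 451 windows of 50 bases in Krt4, Krt6a, Krt79, Krt5 or Krt15 occurred in another gene. In Krt14 and Krt17, 43 windows (9.53%) occurred in each other, so reads from these could be split between the pair. The coding sequence of Krt6a shared 60.4% of its windows with Krt6b, a near copy that had 6 UMIs in the whole table, and a part of those could be misplaced either way.

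Of the 55 keratin genes, 49 had at least 1 UMI and 18 had 500 or more. The simple epithelial keratins Krt7, Krt8, Krt18 and Krt19 held 98.4% of all keratin UMIs and the 7 members together 1.15%, so the labelled luminal identity held at the level of the keratins. The members were minor transcripts against this background.

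Krt4, Krt6a and Krt79 were higher in the mutant pool than in the WT pool in every library pair. Over all cells Krt4 was at 59.0 and 62.6 CPM in WT A and B and at 107.9 and 110.3 CPM in mutant A and B. The libraries of the 2 genotypes did not overlap, and the log2 ratio of mutant over WT was 0.84 (95% interval 0.79 to 0.90, from 4447 and 6811 UMIs), or 1.79-fold. Krt6a was at 47.2 and 60.1 CPM in the WT libraries and at 112.6 and 114.2 CPM in the mutant libraries, a log2 ratio of 1.07 (1.02 to 1.13), or 2.10-fold. For this gene the WT libraries differed between themselves, while the mutant libraries were nearly equal. Krt79 was at 62.1 and 61.6 CPM in WT and at 100.3 and 99.1 CPM in mutant, a log2 ratio of 0.69 (0.63 to 0.75), or 1.61-fold. These intervals, like all others below, are exact and cover counting error only.

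The basal keratins lay far lower and did not separate the genotypes. Krt5 was at 1.05 and 1.39 CPM in WT and at 1.40 and 1.11 CPM in mutant libraries. Krt14, its partner in myoepithelial cells, was at 3.79 and 4.37 CPM in WT and at 4.16 and 4.63 CPM in mutant libraries. Krt17 was at 5.42 and 5.81 CPM in WT and at 5.36 and 6.70 CPM in mutant libraries. For all 3 the libraries of the genotypes overlapped, with log2 ratios of 0.02 (−0.44 to 0.47), 0.11 (−0.13 to 0.35) and 0.11 (−0.10 to 0.31) in that order.

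Krt15 was at 12.8 and 12.6 CPM in WT and at 13.5 and 10.3 CPM in mutant libraries, also overlapping, with a log2 ratio of −0.10 (−0.25 to 0.04). A fold was called here when it was at least 1.5, the genotype with more had at least 50 UMIs, and both mutant libraries lay beyond both WT libraries. By this rule 3 of the 7 members were higher in the mutant over all cells, and 3.23% of the 16450 genes tested were. The members were picked with this contrast in view, so nothing is read from their share. Among the genes tested, Krt6a ranked 46, Krt4 ranked 138 and Krt79 ranked 315 from the highest ratio. In bulk sums such as these, more cells with a transcript and more transcript per cell cannot be told apart, and the shares of cells are given below.

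**Figure D1:**
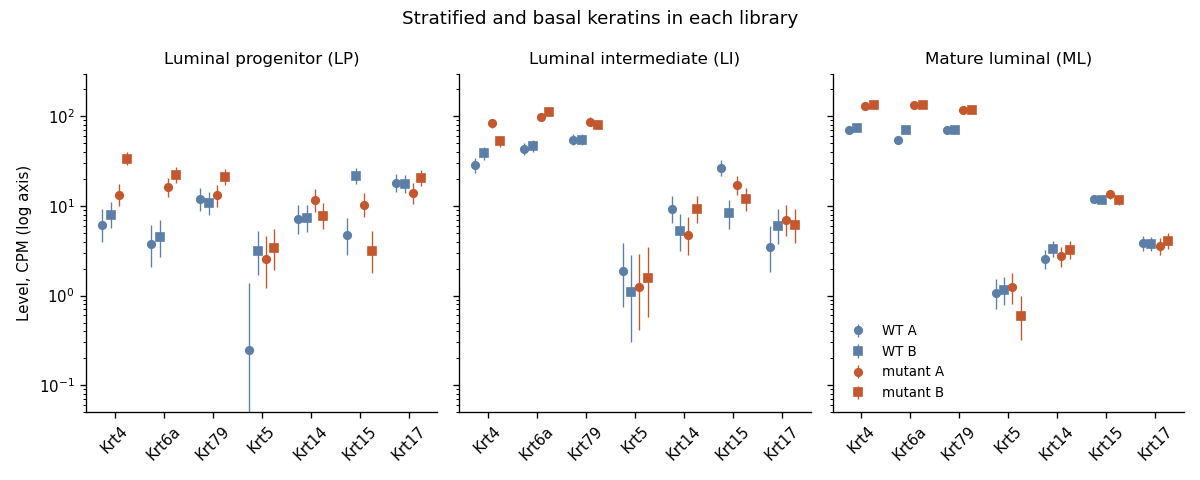
Level of each keratin (CPM, log axis) in the LP, LI and ML classes, with 1 point per library (WT blue, mutant orange, A circles, B squares) and exact 95% Poisson intervals. Krt4, Krt6a and Krt79 rose from LP to ML and lay higher in the mutant libraries of each class, whereas Krt17 was highest in LP and the points of the genotypes overlapped for it in LP and ML.

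The 3 higher keratins differed between the luminal classes. In WT, Krt4 stood at 7.16 CPM in LP, 33.5 CPM in LI and 72.8 CPM in ML, and Krt6a at 4.11, 45.1 and 62.8 CPM in the same order. Krt79 stood at 11.3, 54.9 and 70.6 CPM. The order LP, LI, ML held in all 4 libraries for each of the 3, and neighbouring classes did not overlap within a genotype. LI cells were the deepest of the 3 classes, with medians of 5620 UMIs in WT and 6850 in mutant. The medians were 2018 and 2067 UMIs in LP and 3508 and 4070 in ML. How far droplets holding more than 1 cell set the LI levels was not tested.

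In ML cells Krt4 was at 71.2 and 74.1 CPM in WT and at 130.0 and 135.3 CPM in mutant libraries, a log2 ratio of 0.87. Krt6a was at 54.4 and 70.5 CPM in WT and at 133.0 and 133.4 CPM in mutant libraries, a log2 ratio of 1.08. Krt79 was at 70.7 and 70.6 CPM in WT and at 119 and 118 CPM in mutant libraries, a log2 ratio of 0.75. All 3 passed the fold rule, as did 2.86% of the 15157 genes tested in ML. Markers of other cell types moved with genotype in the same class. The summed level of 6 immune markers was 3.17 and 4.96 CPM in WT and 6.98 and 5.69 CPM in mutant ML libraries, with none or 1 of the 6 at 0, and that of 6 fibroblast markers was 15.1 and 13.8 CPM in WT and 5.43 and 4.38 CPM in mutant ML libraries, with 0 to 2 of the 6 at 0. In each list 1 marker had enough UMIs for the rule, Cd74 (log2 ratio 0.88, higher) and Dcn (−1.78, lower), and both also passed it without cluster 11 (0.84 and −1.44). Their part in the result was not tested.

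In LI cells, which lie between progenitors and mature cells in their markers, Krt4 was at 28.7 and 38.5 CPM in WT and at 83.3 and 52.9 CPM in mutant libraries, a log2 ratio of 1.03. Here the mutant libraries differed by more than the WT libraries did. Krt6a was at 43.3 and 47.0 CPM in WT and at 98.4 and 113 CPM in mutant libraries (1.22), and Krt79 at 55.0 and 54.7 CPM in WT and at 87.6 and 80.7 CPM in mutant libraries (0.62). All 3 passed the rule, as did 2.83% of the 10525 genes tested in LI, though Krt79 did not without mutant A (0.56) or without cells of 5 or more Krt79 UMIs (0.35). Proliferation and basal markers moved with genotype in the same class. The summed level of 5 proliferation markers was 98 to 124 CPM in WT and 168 to 185 CPM in mutant LI libraries, and that of 10 basal markers was 52.1 to 59.1 CPM in WT and 80.4 to 108.7 CPM in mutant LI libraries, with 1 or 2 of the 10 at 0 in each library. Their part in the result was not tested.

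In LP cells levels were low and the ratios were larger. Krt6a was at 3.72 and 4.46 CPM in WT and at 16.2 and 22.2 CPM in mutant libraries, a log2 ratio of 2.24 (1.71 to 2.81), the highest of the 11219 genes tested in LP. Clusters 12 and 13, which belong to no luminal class and hold fibroblast and endothelial markers (cluster 12) or immune markers (cluster 13), had Krt6a at 5.27 CPM in WT (2 UMIs, interval 0.638 to 19.0) and at 29.5 CPM in mutant (9 UMIs, 13.5 to 56.0). The mutant LP libraries lay within the latter interval, so the LP level of Krt6a cannot be told apart from that in clusters 12 and 13. Krt4 followed in rank 2, at 6.19 and 8.03 CPM in WT and at 13.4 and 33.8 CPM in mutant libraries, a log2 ratio of 1.78 (1.36 to 2.21). The counts behind it were 61 and 213 UMIs, and without mutant B the ratio was 0.91. Krt79 was at 11.9 and 10.7 CPM in WT and at 13.2 and 21.2 CPM in mutant libraries (0.64, 0.26 to 1.02). The 3 passed the rule, as did 2.23% of the genes tested, but Krt79 did not pass without mutant B (0.22), without WT B (0.56) or without cells whose barcode occurred in more than 1 library (0.58).

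A few cells carried much of the LP difference in Krt4. In the mutant, 10 LP cells with 5 or more Krt4 UMIs held 131 of the 213 UMIs (61.5%), and in mutant B 8 such cells held 120 of 160. Without cells of that kind in either genotype Krt4 was at 5.53 CPM in WT and 9.57 CPM in mutant LP, a log2 ratio of 0.79, while Krt6a was at 4.11 and 16.0 CPM. For Krt79 the same step gave a log2 ratio of 0.22, below the fold rule. Leaving out these cells was chosen after the values were seen. The cutoff is on the gene itself, so it takes more from the genotype with more of it and part of the fall is built in.

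The LP cells with any UMI of Krt4, Krt6a or Krt79 had higher levels of mature luminal markers than the other LP cells. They were 4.40% of WT LP cells (140 cells) and 7.14% of mutant LP cells (223 cells). Their summed level of 6 mature luminal markers was 1640 CPM in WT and 1549 CPM in mutant, against 611 and 436 CPM in the other LP cells, and that of 6 progenitor markers was 3351 and 2818 CPM against 5690 and 5252 CPM. Their median depth was 4050 and 4464 UMIs against 1980 and 1996 UMIs. How far depth, or droplets holding more than 1 cell, set these differences was not tested, and no doublets were removed here.

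Among the luminal classes Krt17, unlike Krt4, Krt6a and Krt79, was highest in the progenitors. It was at 18.1 and 17.6 CPM in the WT and at 13.9 and 20.5 CPM in the mutant LP libraries, and at 3.80 and 3.83 CPM in WT and mutant ML cells. No LP library overlapped an ML library. Outside these classes, WT cluster 12 had Krt17 at 62.4 CPM (7 UMIs), Krt14 at 134 CPM (15 UMIs) and Krt15 at 62.4 CPM (7 UMIs). Mutant cluster 12 had no UMI of Krt17 or Krt15 and 1 of Krt14. Krt14 was at 7.28 CPM in WT and 9.56 CPM in mutant LP, at 7.30 and 6.96 CPM in LI, and at 2.96 and 3.00 CPM in ML. In LI, 5 cells held 53 of the 108 Krt14 UMIs (49.1%), and without cells of 5 or more Krt14 UMIs the levels over both genotypes were 6.57 CPM in LP, 3.63 CPM in LI and 2.78 CPM in ML, so the LI level rested on a few cells. With all cells the genotypes separated by the fold rule in neither gene in any of the 3 classes. Without cells of 5 or more Krt17 UMIs, which like the same step for Krt14 was chosen after the values were seen, Krt17 was lower in mutant LP, at 12.4 and 14.1 CPM in WT and at 5.59 and 10.4 CPM in mutant libraries, a log2 ratio of −0.69 (−1.14 to −0.25) that was past the rule. The step took 39 of the 152 WT and 81 of the 152 mutant Krt17 UMIs of LP, so nothing is read from this call.

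The class order of Krt15 and Krt5 rested on a few cells. Krt15 was at 4.71 and 21.6 CPM in the WT LP libraries and at 10.4 and 3.17 CPM in the mutant LP libraries, and a single WT B cell held 73 of the 97 UMIs of WT B. In ML, where its UMIs came from more cells, it was at 12.04 and 11.74 CPM in WT and at 13.5 and 11.5 CPM in mutant libraries. Krt5 was at 0.248 and 3.12 CPM in the WT and at 2.53 and 3.38 CPM in the mutant LP libraries, and 1 cell held all 14 UMIs of WT B. Without the cells of 5 or more Krt15 UMIs, a step chosen after the values were seen, Krt15 was highest in ML in each of the 4 libraries, at 8.88 to 10.9 CPM against 3.17 to 9.14 CPM in LP and 4.40 to 10.6 CPM in LI. In LI that step separated the genotypes, but it took 95 of the 131 WT and 38 of the 113 mutant Krt15 UMIs, so nothing is read from this. Krt15 was there at 26.8 and 8.25 CPM in WT and at 17.07 and 11.91 CPM in mutant libraries with all cells, a log2 ratio of −0.28 with overlapping libraries, and at 5.32 and 4.40 CPM in WT and at 10.6 and 8.75 CPM in mutant libraries without those cells, a log2 ratio of 0.99 (0.40 to 1.61) that was past the fold rule.

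**Figure D2:**
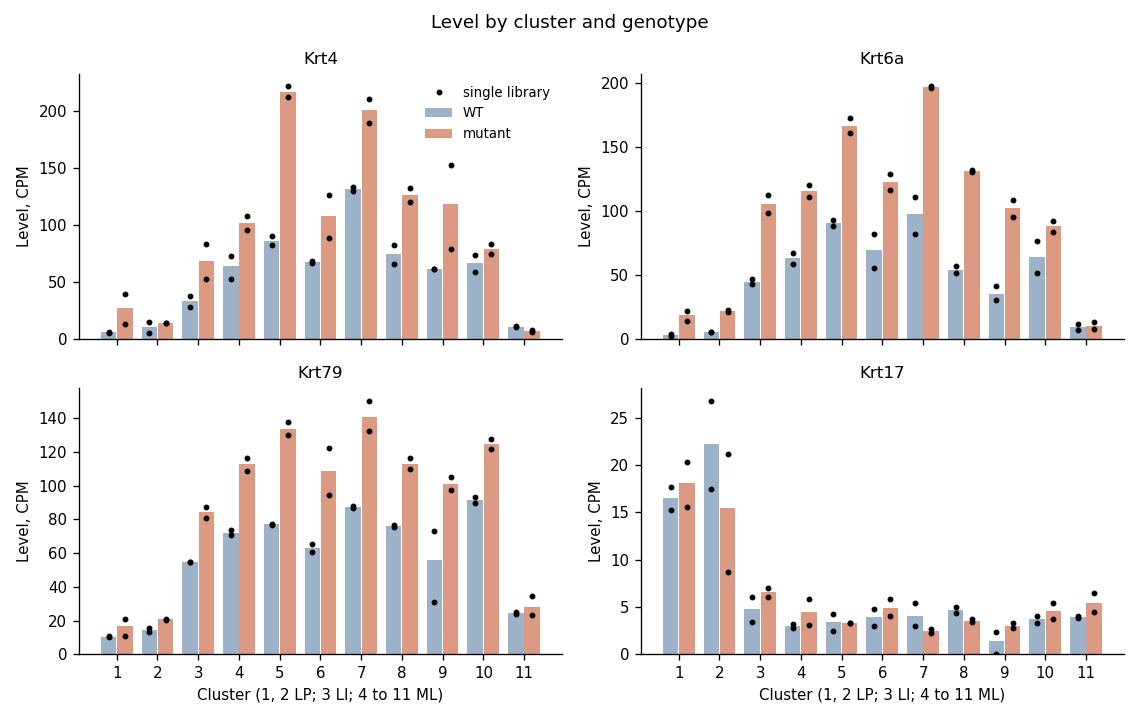
Level (CPM) of Krt4, Krt6a, Krt79 and Krt17 in clusters 1 to 11, with a bar per genotype and a dot per library. The mutant dots lie above the WT dots for the first 3 genes in clusters 4 to 10, while in cluster 11 those of Krt4 lie below and those of Krt6a and Krt79 overlap, and Krt17 is highest in the LP clusters 1 and 2.

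The difference in ML was also present within its clusters. Krt4, Krt6a and Krt79 each had a pooled mutant level above the pooled WT level in each of the ML clusters 4 to 10. So did 10.7% of the 5327 genes with at least 20 UMIs in each of these clusters. For the 3 keratins both mutant libraries also lay above both WT libraries in each. The share of genes with libraries apart in each was not counted, so nothing is read from that. It was not particular to the 3, because the simple keratin Krt8 had its libraries apart in the same way in each. In cluster 9, for example, Krt8 was at 755 and 672 CPM in WT and at 1115 and 1146 CPM in mutant libraries. Without cluster 11, ML levels were 85.0 CPM in WT and 140.0 CPM in mutant for Krt4 (log2 ratio 0.72), 73.4 and 140.0 CPM for Krt6a (0.93) and 79.8 and 124 CPM for Krt79 (0.63). All 3 passed the fold rule there, as did 2.66% of 14792 genes. Each ratio was smaller than in ML with cluster 11, whose cells had low levels of the 3 and were rarer in the mutant.

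The highest levels were in clusters 5 and 7, except for Krt79 in WT. In WT, Krt4 was highest in cluster 7 at 132 CPM, apart from cluster 5 at 86.3 CPM in every library. In the mutant, Krt4 was at 217 CPM in cluster 5 and 201 CPM in cluster 7. The libraries were barely apart there, at 212.8 to 222.0 CPM in cluster 5 and 190.0 to 211.0 CPM in cluster 7. The order of this pair in the mutant was thus close to a tie. Krt6a was highest in cluster 7 in both, at 97.8 CPM in WT, where its libraries overlapped those of cluster 5 at 90.6 CPM, and at 196 CPM in mutant. Krt79 was highest in cluster 10 in WT at 91.4 CPM and in cluster 7 in mutant at 140.5 CPM, where it overlapped cluster 5 at 134 CPM.

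Cluster 10 had the smallest ratios for all 3 among clusters 4 to 10. There Krt4 was at 67.3 CPM in WT and 79.4 CPM in mutant (log2 ratio 0.24), Krt6a at 64.5 and 88.5 CPM (0.46) and Krt79 at 91.4 and 125 CPM (0.45). Cluster 5 had the largest ratio of these clusters for Krt4, 1.33, and cluster 9 the largest for Krt6a, 1.55, the latter from 25 and 68 UMIs. Within LP, Krt4 in cluster 1 was at 6.28 and 5.99 CPM in WT and at 13.2 and 39.5 CPM in mutant libraries. Krt6a was there at 2.97 and 3.99 CPM against 14.2 and 22.5 CPM. In cluster 2 Krt6a was at 5.94 to 6.15 CPM in WT and at 21.1 to 22.7 CPM in mutant libraries, from 12 and 44 UMIs. Both LP clusters thus held the Krt6a difference. Krt4 overlapped between the genotypes in cluster 2, at 5.94 to 15.4 CPM in WT and 14.1 to 14.7 CPM in mutant libraries.

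In cluster 11, the ML cluster that was rarer in the mutant, the 3 keratins were low in both genotypes. Krt4 was at 12.1 and 10.5 CPM in WT and at 8.35 and 6.77 CPM in mutant libraries, so the mutant was the lower one. The log2 ratio of −0.59 (−1.40 to 0.14) came from 106 and 18 UMIs, and its interval included 0 although it passed the rule, as did 3.17% of the 10223 genes tested in this direction. Krt6a was at 9.78 and 10.8 CPM and Krt79 at 24.5 and 28.2 CPM, with overlapping libraries. Krt15 was the only member higher in mutant cluster 11 by the rule, at 8.27 and 4.05 CPM in WT and at 17.6 and 12.03 CPM in mutant libraries (1.26, 0.61 to 1.89), with 57 and 35 UMIs. The same rule called 2.7% of genes higher there. Krt5 had 17 UMIs (1.81 CPM) in WT cluster 11 and none in the mutant, where 0 UMIs allow up to 1.25 CPM by the limit of 3 counts. That limit is lower than the exact Poisson limit used for the other levels, so nothing is read from the contrast.

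A larger share of mutant cells held the 3 keratins. Krt4 was seen in 8.48% of WT and 14.3% of mutant cells, with 2.81 and 3.46 UMIs per cell that had any. Krt6a was seen in 11.2% and 22.1% of cells, with 1.89 and 2.32 UMIs, and Krt79 in 12.1% and 19.1%, with 2.01 and 2.36 UMIs. Mutant cells were deeper, with a median of 3840 UMIs against 3400 in WT, so each cell was also thinned to 1000 UMIs. This left out 297 shallower cells, most of them mutant. It kept 18593 of 18638 WT and 13549 of 13801 mutant cells. In LP it kept 3149 of 3181 WT and 2950 of 3123 mutant cells. The shares were then 3.43% and 5.61% for Krt4, 3.62% and 7.51% for Krt6a, and 4.38% and 6.35% for Krt79. The UMIs per cell that had any were then 1.56 and 1.66 for Krt4, 1.20 and 1.26 for Krt6a, and 1.29 and 1.33 for Krt79.

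Background from free RNA is not removed by thinning. In the LP class, where these genes were lowest, Krt4 had a UMI in 1.32% of WT and 2.53% of mutant cells, at median depths of 2018 and 2067 UMIs, against 10.0% and 17.8% of ML cells at 3508 and 4070 UMIs. Krt5 was seen in 0.322% of WT and 0.341% of mutant cells, Krt14 in 1.16% and 1.54%, Krt15 in 2.71% and 3.72%, and Krt17 in 1.66% and 1.78%. In the smallest clusters, 12 and 13, which belong to no luminal class, Krt4 was found in 7 of 126 WT and 2 of 114 mutant cells (5.56% and 1.75%), at median depths of 1922 and 1680 UMIs. Krt6a was found there in 2 of the WT and 7 of the mutant cells (1.59% and 6.14%), against 1.01% and 3.27% of LP cells, and Krt79 in 4 and 1 (3.17% and 0.877%), against 2.42% and 2.98%. The LP shares lay below these in WT for all 3 and in mutant for Krt6a. No LP share lay above the interval of clusters 12 and 13, which rests on few cells, so the LP shares cannot be told apart from those there. In mutant LP 10 cells held 5 or more Krt4 UMIs, and none did in clusters 12 and 13. These clusters also had Krt18 at 3638 CPM in WT and 2667 CPM in mutant. The source of their keratin UMIs was not tested.

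The UMIs of Krt4 were the most concentrated of the 3. Cells with 5 or more Krt4 UMIs were 645 of 32439 and held 59.5% of its UMIs, with up to 49 in 1 cell. For Krt6a, 498 such cells held 32.8% of its UMIs, and for Krt79, 495 cells held 35.5%. Such Krt4 cells were 3.43% of WT and 6.46% of mutant cells in cluster 7, and 3.18% and 7.06% in cluster 5. In cluster 10 they were 1.78% and 1.77%, and in cluster 9 3 of 441 WT and 2 of 457 mutant cells (0.680% and 0.438%), so their share was not larger in the mutant in every ML cluster. A cutoff at 5 UMIs depends on depth. Cluster 9 had medians of 1532 UMIs in WT and 1355 in mutant, against 5032.5 and 5553.5 in cluster 5, so these shares do not compare levels between clusters. In cluster 11 there was none among 2863 WT and 670 mutant cells. Without cells of 5 or more UMIs of the gene, the log2 ratio over all cells was 0.63 for Krt4, 0.91 for Krt6a and 0.57 for Krt79, the last below the fold rule. For Krt6a this left out 138 WT and 360 mutant cells. A cutoff on the gene itself takes more from the genotype with more of it, so part of the fall is built in.

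The basal keratins were concentrated differently. Cells with 5 or more UMIs were 5 for Krt5, 12 for Krt14, 20 for Krt17 and 36 for Krt15, and they held 31.5%, 20.2%, 21.4% and 26.6% of the UMIs of those genes. The WT B cell with 73 Krt15 UMIs, an LP cell of 1332 UMIs, also held 14 Krt5 and 7 Krt14 UMIs and no Krt18. A WT B cell of cluster 5 with 7036 UMIs held 20 Krt14, 10 Krt5 and 35 Krt15 UMIs beside 26 of Krt18 and 10 UMIs of 4 basal markers.

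**Figure D3:**
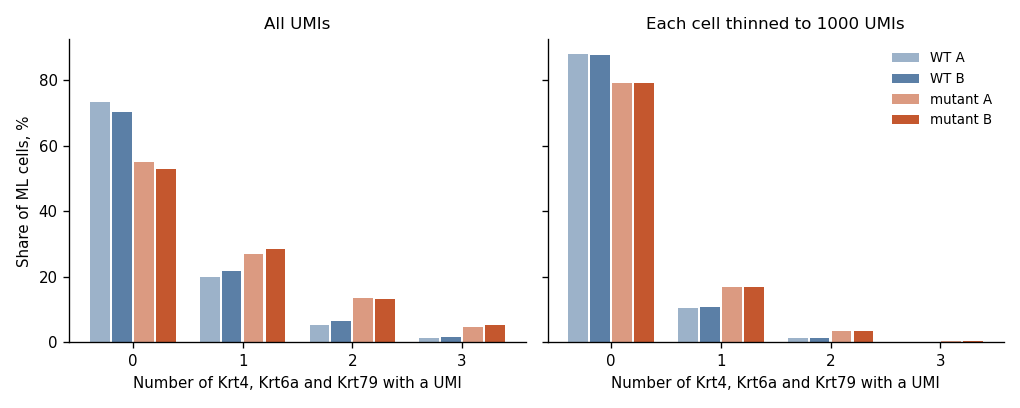
Share of ML cells (percent) in which none, 1, 2 or all of Krt4, Krt6a and Krt79 had a UMI, by library, as deposited and after thinning to 1000 UMIs per cell. The WT libraries have more cells with none and the mutant libraries more cells in each other category, at both depths.

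Krt4, Krt6a and Krt79 were found in the same ML cells more often than in cells that lacked the other. Krt6a had a UMI in 44.2% (42.4 to 45.9) of 3139 ML cells with Krt4 and in 15.2% of those without. Krt79 was in 39.0% of cells with Krt4 and 14.7% of those without, and in 34.6% of cells with Krt6a and 14.0% of those without. Cells with a UMI were deeper, a median of 4704 against 3605 UMIs for Krt4. After thinning the shares were 19.8% and 5.74% for Krt6a by Krt4, 18.1% and 5.72% for Krt79 by Krt4, and 13.8% and 5.87% for Krt79 by Krt6a.

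The joint presence was seen within each genotype. Krt6a was in 34.3% of WT ML cells with Krt4 and 10.3% of those without, and in 52.4% and 21.2% of mutant ML cells. None of the 3 had a UMI in 71.8% of WT and 54.0% of mutant ML cells (87.9% and 79.2% after thinning). All 3 had one in 1.53% of WT and 4.89% of mutant ML cells (0.155% and 0.409% after thinning). The libraries of the genotypes did not overlap in either share at either depth. Without cluster 11, none of the 3 had a UMI in 67.6% of WT and 51.4% of mutant ML cells, and all 3 had one in 1.91% and 5.26%.

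The other members joined this group weakly or not at all. Krt5 was in 0.319% of ML cells with Krt4 and 0.358% of those without, and Krt14 in 1.56% and 1.10%. Krt15 had the larger difference, 5.89% with Krt4 and 3.08% without, or 1.88% and 1.10% after thinning, where the interval of the former share was 1.21 to 2.78%. Krt17 was in 2.13% of ML cells with Krt4 and 1.43% without. In LP, where Krt17 was highest, Krt4 was in 2.92% (0.801 to 7.31) of cells with Krt17 and 1.90% of those without.

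Some pairs of basal keratins were found together in LP cells. In LP, Krt14 was in 4 of 12 cells with Krt5 (33.3%, interval 9.92 to 65.1) and in 1.41% of those without. Krt17 was in 8.60% of LP cells with Krt14 and 2.08% of those without, though reads of this pair may be split between them.

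**Figure D4:**
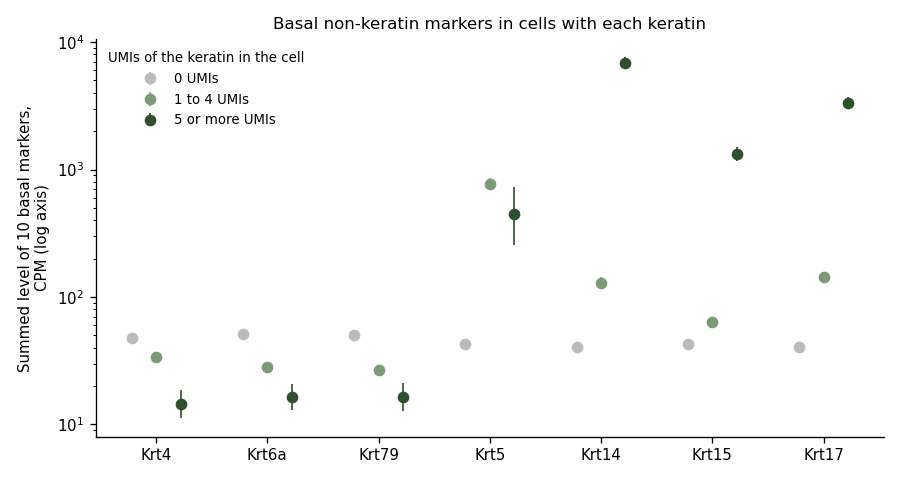
Summed level of 10 basal (myoepithelial) markers (CPM, log axis) in cells with no, 1 to 4, and 5 or more UMIs of each keratin, with exact 95% Poisson intervals. The level falls across the 3 categories for Krt4, Krt6a and Krt79 and lies above that of cells without the gene for Krt5, Krt14, Krt15 and Krt17.

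The members differed in the level of 10 basal markers, none of them keratins, in the cells that held them. The markers include Acta2 and Tagln of the contractile apparatus and the basal transcription factor Trp63. In cells with no, 1 to 4, and 5 or more Krt4 UMIs their summed level was 48.1, 33.6 and 14.5 CPM. It was 50.9, 28.4 and 16.5 CPM over the same categories of Krt6a and 50.6, 26.7 and 16.5 CPM over those of Krt79. In the cells with 5 or more UMIs, 3 of the 10 markers were at 0 for Krt4 and Krt79 and 4 for Krt6a.

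Most such cells were ML cells (590 of the 645 with 5 or more Krt4 UMIs), in which basal markers were low throughout, so class make-up moves with these values. Within ML the 3 levels were 22.4, 14.0 and 10.9 CPM for Krt4, 23.3, 14.2 and 9.69 CPM for Krt6a, and 22.15, 16.98 and 12.78 CPM for Krt79. Within LI they were 69.0, 115 and 42.2 CPM for Krt4, with no steady order.

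Cells with a basal keratin had more of the basal markers than cells without it. Cells without Krt14 had 40.9 CPM of basal markers, cells with 1 to 4 Krt14 UMIs had 129 CPM, and the 12 cells with 5 or more had 6835 CPM. For Krt17 the values were 40.5, 142 and 3330 CPM, and for Krt15 42.4, 63.2 and 1335 CPM. For Krt5 the 102 cells with 1 to 4 UMIs had 773 CPM and the 5 cells with more had 447 CPM, against 42.5 CPM in cells without. UMIs of 2 or more basal markers were found in 368 of all cells (1.13%), in 6 of the 12 cells with 5 or more Krt14 UMIs, in 9.80% of cells with 1 to 4 Krt5 UMIs, and in 1 of the 645 cells with 5 or more Krt4 UMIs.

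The same markers also differed between the libraries. Over all cells they summed to 36.9 and 44.7 CPM in WT and to 51.6 and 48.6 CPM in mutant libraries, with 1 of 10 at 0 in mutant A and none at 0 in the others. In ML the mutant was the lower, 21.1 and 24.0 CPM in WT against 19.6 and 17.6 CPM. Of the 10 markers 3 were tested in LI, where 2.83% of all genes tested were higher. Acta2 (0.88) and Tagln (0.92) were higher by the fold rule, and the third, Oxtr, was at −0.37. A list of 7 skin keratinocyte markers summed to 55.1 and 52.3 CPM in WT and to 61.3 and 61.2 CPM in mutant libraries. Of these 7, 3 were tested and 0 were higher by the rule, with 3.23% of all genes tested higher. Their median log2 ratio was 0.001, and Krt1 (6.53 and 6.41 CPM) and Krt10 (15.07 and 15.08 CPM) were alike in WT and mutant. The part of either list in the levels of Krt4, Krt6a and Krt79 was not tested.

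Among 13 partners and close relatives of the members in the table, 8 had enough UMIs for the rule and 2 were higher in the mutant over all cells, none lower, with 3.23% of all genes tested higher. Krt13, the type I partner of Krt4, was at 8.01 and 8.58 CPM in WT and at 13.6 and 11.98 CPM in mutant libraries (log2 ratio 0.62). Krt77, a type II keratin of sweat ducts, was at 14.4 and 13.9 CPM in WT and at 22.3 and 22.7 CPM in mutant libraries (0.67). Krt78 was at 17.5 and 18.9 CPM in WT and at 27.4 and 27.2 CPM in mutant libraries, just under the fold rule at 0.58 and past it in ML (0.60) and LI (0.85). In contrast, Krt16, the usual partner of Krt6a, was at 1.70 and 1.92 CPM in WT and mutant (0.18), and the epidermal pair Krt1 and Krt10 had ratios of −0.03 and 0.00. The median over the 8 was 0.09, and over all genes tested 0.02.

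None of 6 simple epithelial keratins was higher by the rule over all cells, against 3.23% of all genes tested, so nothing is read from this count. Krt8 came closest, at 858 and 833 CPM in WT and at 1310 and 1138 CPM in mutant libraries (0.53), and passed it in LI (0.60), as did 2.83% of genes. Krt18, which pairs with it, had a ratio of 0.04, Krt19 of 0.03 and Krt7 of 0.11. The median of the 6 was 0.13.

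Of 19 cornified envelope and keratinocyte differentiation genes, 11 were tested and 1 was higher, with 3.23% of all genes tested higher. It was Ivl, which encodes the envelope precursor involucrin, at 16.6 and 17.1 CPM in WT and at 32.0 and 26.0 CPM in mutant libraries (0.78). Ivl also passed the rule in LI (1.22) and in ML without cluster 11 (0.60). The 4 genes of the list with the most UMIs stood at −0.08 (Sfn), 0.07 (Anxa1), −0.12 (Cstb) and 0.13 (Sprr1a), with a median of 0.07.

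Of 20 desmosome and hemidesmosome genes, which anchor keratin filaments to the membrane, 15 were tested and none was higher by the rule over all cells, with 3.23% of all genes tested higher. Dsc2, a desmosomal cadherin, was at 0.37 over all cells and the 1 of 14 tested that passed it in LI (0.61), and Perp was at 0.29. The plaque protein genes Jup and Dsp were at 0.09 and 0.02, and the linker genes Plec and Dst at −0.01 and −0.08. The median was 0.12. Of 14 transcription factors of stratified and basal epithelium, 11 were tested and none passed, against the same 3.23%, with ratios from −0.18 for Klf4 to 0.34 for Zfp750 and a median of 0.03. Trp63 had 33 and 32 UMIs, too few for the rule.

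**Figure D5:**
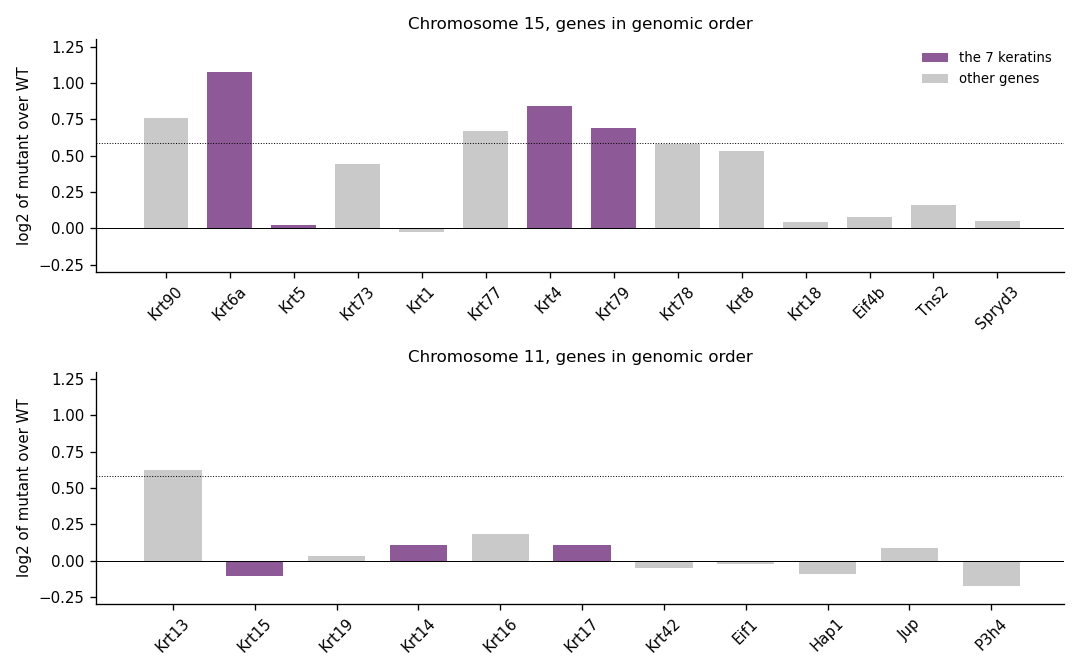
Log2 ratio of mutant over WT over all cells for genes with at least 100 UMIs, keratins and flanking genes, in their order along chromosomes 15 and 11. Purple bars are the 7 keratins, grey bars other genes, and the dotted line marks 1.5-fold. Krt77, Krt4, Krt79, Krt78 and Krt8 follow each other with ratios of 0.53 to 0.84, and Krt18 next to them is at 0.04.

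In their order on chromosome 15, Krt77, Krt76, Krt4, Krt79, Krt78 and Krt8 are neighbours, and Krt18 follows. Their ratios over all cells were 0.67 for Krt77, 0.84 for Krt4, 0.69 for Krt79, 0.58 for Krt78, 0.53 for Krt8 and 0.04 for Krt18, and Krt76 had 13 UMIs. Krt4 and Krt79 are separated by 4596 bases, and Krt79 and Krt78 by 5676 bases. Wider gaps lie between Krt76 and Krt4 (25614 bases) and between Krt78 and Krt8 (42410 bases). Krt1, at −0.03 (877 UMIs), lies 7936 bases before Krt77 and outside this stretch. Krt6a, with the highest ratio of the members, lies apart from this stretch, between Krt6b with 6 UMIs and Krt5 at 0.02. Farther out on either side of it lie Krt90 at 0.76 (115 UMIs, past the fold rule) and Krt73 at 0.45 (106 UMIs). Krt71, between Krt5 and Krt73, was at 6.40, with 65 of its 73 UMIs in 1 cell. In the type I cluster Krt13 (0.62) lies near Krt15 (−0.10), and Krt19, Krt14, Krt16, Krt17 and Krt42 had ratios from −0.05 to 0.18. These neighbours were looked at after their values were seen.

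Over 44 points (clusters 1 to 11 in each of the 4 libraries) and 11677 genes with at least 500 UMIs, the genes most like Krt4 by Pearson correlation of log2 levels were Krt6a (0.95), Wfdc3 (0.94) and Krt79 (0.91). Those most like Krt6a were Krt4 (0.95), Krt79 (0.94) and Wfdc3 (0.93), and for Krt79 they were Krt6a (0.94), Tspan13 (0.93) and Prag1 (0.92). Krt17 was most like Mpzl1 (0.91), Zfp637 (0.90) and St3gal5 (0.90). For Krt14 the highest value was 0.72 (Comtd1) and for Krt15 it was 0.63 (Arf3), so no gene was seen to follow either closely. Krt14 had only 574 UMIs in all, and 1 cell held 73 of the Krt15 UMIs, so a closer match could have been missed. Krt5, with 168 UMIs, was below the minimum. Among the basal members, Krt14 and Krt17 correlated at 0.42, Krt15 with Krt14 at −0.06 and Krt15 with Krt17 at −0.33. Points of 1 library share its depth and preparation, and the values describe these cells only.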

How the data were processed

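Single cell 3′ libraries (10x Chromium, v2 kit) were made from 1 pool of luminal cells per genotype. The authors deposited a signal table with a value per gene and cell (the UMIs scaled by a factor of that cell) and with each cell's library, genotype, cluster and class. The paper names Partek Flow with a Seurat setting of 0.6. The submitters' processing notes list CASAVA 1.8, bcl2fastq 2.20, GSNAP 2013-10-10 and GRCm38. Their roles and filters on cells are not given in the sources used here.

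Dividing by the smallest value of each cell gave UMIs, with 100% of nonzero values within 0.02 of a whole number. Summed over the cells of a library, genotype, class or cluster, they were expressed per 1000000 UMIs (CPM). All deposited cells were used and doublets were not called. The table holds no column for replicate numbers, so libraries were named A and B by their identifiers. No count model and no test were used, because a genotype was 1 pool. Levels have exact Poisson, ratios exact conditional binomial and shares Clopper-Pearson intervals, all at 95%. The upper limit given for 0 is 3 counts, which is lower than the exact Poisson limit.

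The named genes were the 7 members, from each list the genes past the rule in all cells or a class and otherwise up to the 4 with the most UMIs, markers that touch a result, and up to 3 genes with the highest correlation to a member. Krt1, Krt16, Dsp, Zfp750, genes of the neighbourhood, those found beside the keratins and Krt71 were chosen after their values were seen. Members and lists were chosen with earlier results of these data known. Sequences came from GRCm38 with the GENCODE annotation. Alternatives were each library left out, TMM factors, means over cells, other minimums and depths, and left-out cells. A further alternative gave clusters the same weights in both genotypes, namely each cluster's share of all cells. Software was Python 3.11.15, numpy 2.4.6, pandas 2.3.3, scipy 1.17.1 and matplotlib 3.10.9.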

Additional observations from a re-analysis of the deposited data

Results flagged for a closer look

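Krt4 in cluster 11 was lower in both mutant libraries than in both WT libraries, with a log2 ratio of −0.59 from 106 and 18 UMIs, while it was higher in LP, in LI and in each of clusters 4 to 10. The difference between cluster 11 and the others was not tested.

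Krt17 was lower in both mutant libraries in cluster 7 (log2 ratio −0.72, from 46 and 29 UMIs) and in cluster 8 (−0.40, from 32 and 24 UMIs), and higher in both in LI and in cluster 11. These differences were not tested.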

How the results depend on the processing

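No paired analysis was possible because the table carries no replicate numbers and no result comes from a test. No ratio of Krt4, Krt6a or Krt79 changed its direction under any alternative, and with TMM factors (0.985 to 1.02) all 3 passed the fold rule over all cells (0.81, 1.04 and 0.66) and in each class. The ratios below are log2 of mutant over WT. Over all cells, the same cluster weights in both genotypes, set by cluster size, gave 0.71 for Krt4, 0.95 for Krt6a and 0.61 for Krt79. Leaving out cells with 5 or more UMIs of the gene gave 0.63, 0.91 and 0.57, and leaving out cluster 11 gave 0.73, 0.96 and 0.61. A mean of CPM over cells gave 0.63 for Krt79. In ML the same 3 settings gave 0.65, 0.89 and 0.61, then 0.68, 0.95 and 0.66, then 0.72, 0.93 and 0.63, and the mean over cells 1.15 for Krt6a. In LI, leaving out cells with 5 or more UMIs gave 0.70, 0.75 and 0.35, and the mean over cells 0.36 for Krt79. In LP it gave 0.79 for Krt4 and 0.22 for Krt79, and the mean over cells 1.20 for Krt4. Krt79 fell below the fold rule at 0.57, 0.35 and 0.22, and its mean over cells was under 1.5-fold in LI and in LP (0.29). The values 0.57, 0.35 and 0.22 came from the cutoff at 5 UMIs of the gene itself, which tends to lower the ratio of a gene higher in the mutant.

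For the genes whose libraries overlapped, over all cells, the mean over cells gave −0.53 for Krt5 and −0.60 for Krt15, dropping the shallowest 10% of cells gave 0.48 and 0.24, and leaving out cells with 5 or more UMIs gave 0.21 for Krt15 and −0.15 for Krt17. Leaving out 1 library at a time, Krt4 lay at 0.80 to 0.89 over all cells, 0.91 to 2.24 in LP, 0.66 to 1.31 in LI and 0.84 to 0.90 in ML. Krt6a lay at 0.92 to 1.26, 1.98 to 2.43, 1.12 to 1.32 and 0.92 to 1.29, and Krt79 at 0.68 to 0.70, 0.22 to 0.91, 0.56 to 0.67 and 0.74 to 0.75. Krt79 did not pass in LP without WT B (0.56) or mutant B (0.22), nor in LI without mutant A (0.56). Krt5 lay at −0.16 to 0.24, Krt14 at 0.01 to 0.22, Krt15 at −0.30 to 0.082 and Krt17 at −0.07 to 0.25.

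The number of genes higher by the rule was 532, and 967 or 297 with a minimum of 20 or 100 UMIs. The number lower was 193, and 404 or 115. Without 1 library they were 382 to 848 and 154 to 319. Shares of cells with a UMI, over both genotypes, depend on depth. They were 10.9% for Krt4 as deposited, 4.35% at 1000 and 2.51% at 500 UMIs per cell. In the same order they were 15.8, 5.26 and 2.93% for Krt6a, 15.1, 5.21 and 2.88% for Krt79, 0.330, 0.0871 and 0.0555% for Krt5, 1.32, 0.401 and 0.185% for Krt14, 3.14, 1.01 and 0.438% for Krt15, and 1.71, 0.495 and 0.284% for Krt17. Thinning to 1000 UMIs gave joint shares of 19.8, 18.1 and 13.8%. The class with the highest level differed from that of all libraries together in 4 cases, being LI for Krt5 in WT A (1.86 CPM), LI for Krt14 in WT A (9.30 CPM) and mutant B (9.26 CPM), and LP for Krt15 in WT B (21.6 CPM). Leaving out cells with shared barcodes ended 1 call of Krt4, Krt6a or Krt79, that of Krt79 in LP (0.58). The genotypes of the other genes separated in a class by the fold rule under some settings, among them Krt15 in LI with both directions (−0.88 without WT B, 0.82 without WT A, 1.58 without the shallowest 10% of cells), Krt15 in LP (−2.10 without mutant A), Krt17 in LP (−0.69 without cells of 5 or more UMIs), Krt14 in LP and LI (0.68 and −0.61 without mutant B) and Krt5 in ML (−0.91 without mutant A). Over all settings Krt14 in LI ran from −1.63 to 1.04 and passed the rule in 2. The intervals treat UMIs as independent, and UMIs of 1 cell are not. Spread between mice was not measured.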

Other observations

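ML cells outside cluster 11 with 3 or more UMIs of a keratin (1012 cells for Krt4, 1087 for Krt6a and 1037 for Krt79) were set beside those with none, in genes with at least 200 UMIs and the same direction in all 4 libraries. The cells with 3 or more were deeper, with medians of 5139, 5712 and 5276 UMIs against 3766, 3683 and 3729. Besides each other, the 3 keratins shared Krt77, Krt78, Foxq1 and Htra3 among the 8 genes with the largest ratio. Foxq1, a forkhead transcription factor, was at 68.5 CPM in cells with Krt4 and 18.8 CPM in those without. Krt78 was at 98.2 and 20.1 CPM. Padi4, which encodes an enzyme that converts protein arginine to citrulline, was at 166 and 67.7 CPM beside Krt4 and at 173 and 62.8 CPM beside Krt79. Lower in all 3 sets of cells were Fxyd2 (252 and 523 CPM for Krt4), Tmem158 (190.1 and 379 CPM) and Col8a1 (43.5 and 72.4 CPM). These genes were chosen after their values were seen, and cells of both genotypes are pooled in the values.

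Krt71, a hair follicle keratin, had 1 UMI in WT and 72 in mutant cells. Of these, 65 lay in 1 mutant B cell of cluster 3 with 2052 UMIs, which had no UMI of any of the 7 keratins, and 7 lay in all other mutant cells.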
